A study of Mus musculus with 4 samples.

Results

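Immediate early response genes are described here in DN4 thymocytes, the last CD4 and CD8 double-negative stage of T cell development in the thymus. A list of 33 genes was taken: subunits of AP-1, the EGR and NR4A transcription factors, IER and KLF genes, DUSP phosphatases, growth arrest and RNA decay genes, and NF-kB feedback genes with Rel. All 33 were measured, each by 1 probe set with exactly 1 gene symbol, among 19938 genes so measured. The cells were sorted from 4 mice homozygous for a floxed Ikaros gene (Ikf/f). Mice 129 and 135 also carried Rosa26-CreERT2 (Cre+), a Cre recombinase that tamoxifen switches on and that the broadly active Rosa26 locus drives, so that deletion was not limited to thymocytes. Mice 131 and 137 are given as Cre- in the sample titles, and the design text counts 2 mice without the transgene. The treatment text of all 4 samples names CreERT2 mice alike, so that the groups rest on the titles. All 4 mice, controls included, had tamoxifen in sunflower oil injected intraperitoneally at 50 mg/kg on each of 4 days, and cells were taken 24 h after the final dose. Active Cre and loss of Ikaros came together in this design and cannot be told apart. The labels used here give no age or sex, and a single array was made from each mouse.

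Immediate early genes need no new protein synthesis to be transcribed, and their RNAs appear within minutes of a signal. In T cells the signal can come from the antigen receptor or, at the DN stages, from the pre-TCR, and it runs through the ERK kinases, calcium and NF-kB to factors already present in the cell, such as SRF, CREB and NFAT. Many of the products are transcription factors that act on the next wave of genes, and others, such as the DUSP phosphatases and TNFAIP3, switch the signal off again. The same genes also respond to the handling of cells, for example during tissue dissociation and sorting. Their RNAs are short-lived, so that the level at lysis depends strongly on recent transcription.

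The 4 arrays had log2 values from 3.14 to 14.4 and medians from 6.85 to 6.88. Their pairwise correlations across probe sets lay between 0.994 and 0.997. From Xist and the Y-linked gene Kdm5d, animals 129 and 131 read as female, 135 and 137 as male, so that each group held 1 mouse of each sex. The targeted gene Ikzf1 gave 12.06 and 11.99 with Cre, against 12.07 and 12.11 without; which part of the gene the probes read was not analysed here, so this value does not check the labels. Loss of the protein from sorted Cre+ cells was shown by western blot, per the series' design text. The T lineage genes Thy1, Cd3e, Ptcra and Rag1 were at 9.40 or more on every array. Rag2 (8.43 to 9.19) and Cd2 (8.03 to 8.81) were lower. Il2ra, whose protein is lost before the DN4 stage, was at 11.07 and 10.71 in mice 129 and 135 and at 11.58 and 10.96 in the Cre- mice, with no other stage on these arrays to set it against. Array values have no true zero, so that absence of a transcript cannot be read from them. For the genes of interest here, mouse 131 stood apart from the other control, and differences are given with and without it.

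Immediate early genes tended to be higher in Cre+ than in Cre- cells, and most of this difference lay in mouse 131. Of the 33 genes, 28 had a higher mean in the Cre+ mice and 5 a lower one, with a median difference of 0.23 on the log2 scale. Over all 19938 genes 45.9% had a higher mean and the median difference was -0.01. In 16 members (48.5%) both Cre+ mice lay above both Cre- mice, against 16.1% of all genes. In 0 members both Cre+ mice lay below both Cre- mice, against 20.3% of all genes. The separation was narrow in most of the 16: the gap between the lower Cre+ and the higher Cre- mouse was over 0.1 in 6, and was 0.0013 in Dusp1, 0.0019 in Btg2 and 0.0085 in Jund.

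No single member passed the test. With limma and Benjamini-Hochberg adjustment over all 35556 probe sets, 0 probe sets (0%) had an adjusted p under 0.05, while 2356 had an unadjusted p under 0.05. Among the members, 5 had an unadjusted p under 0.05, namely Nr4a1, Ier3, Ier2, Dusp4 and Tnfaip3. All 5 were higher in the Cre+ mice, a share of 15.2% against 4.12% of all genes. When only the 21789 probe sets with 1 symbol were tested, 266 of them (1.22%) passed and again 0 members did, with the smallest adjusted p of a member, 0.0638 from limma, belonging to Ier3. Precision is limited by having 2 arrays per group: no exact two-sided permutation test of this design can give a p under 0.333.

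**Figure D1:**
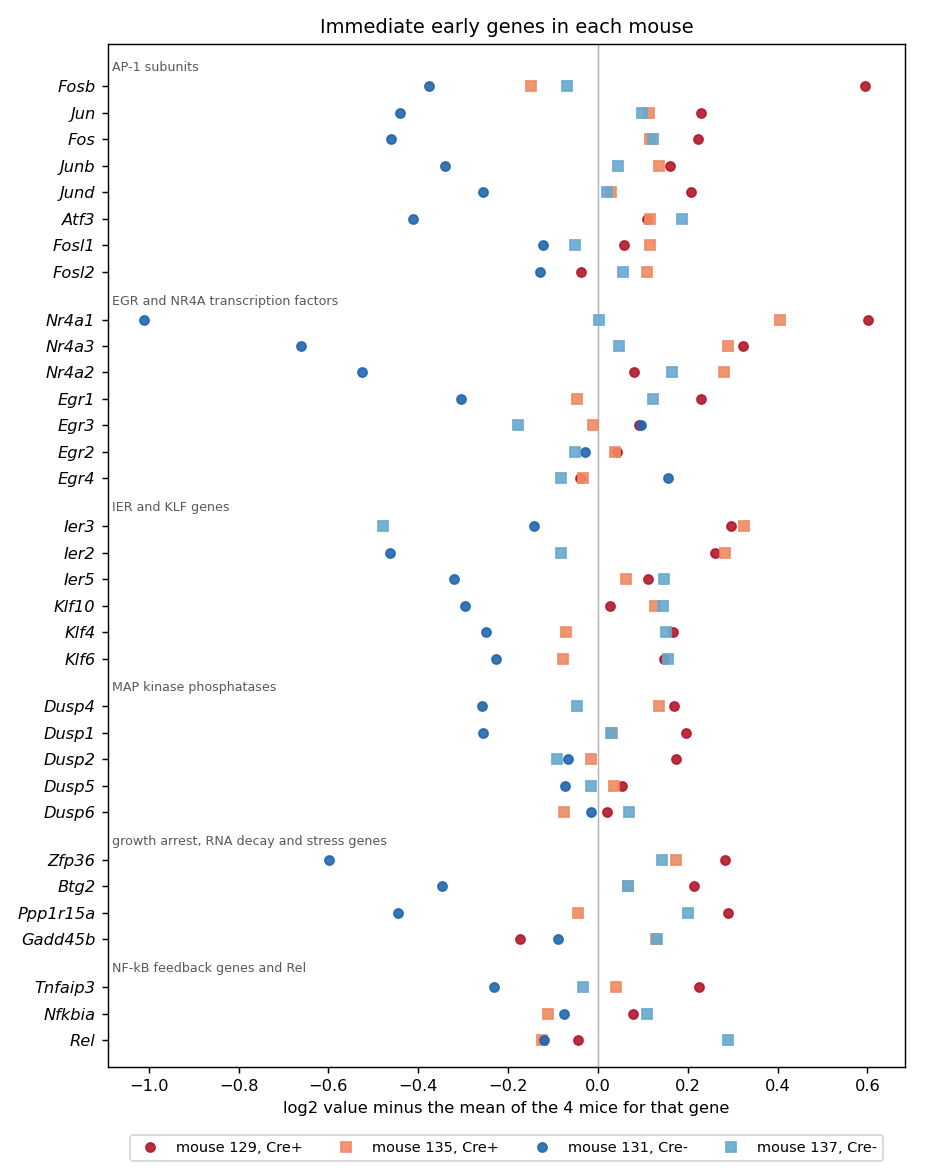
Log2 value of each of the 33 immediate early genes in each mouse, minus that gene's mean over the 4 mice, with genes grouped by role; red and orange are the Cre+ mice, blue shades the Cre- mice, circles female and squares male mice. Mouse 131 is the lowest point for 24 genes, while mouse 137 lies between or above the Cre+ mice for 15.

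The control mice differed from each other in these genes. That a control was low in them was known from these data beforehand, so the shares below describe it and do not test it. Mouse 131 was the lowest of the 4 mice in 24 of 33 members (72.7%), against 24.3% of all genes. It lay below both Cre+ mice in 27 members (81.8%), against 32% of all genes. Mouse 137 lay below both Cre+ mice in 18 members (54.5%), against 35.2% of all genes, between them in 7, and above both in 8 (24.2%), against 37.6% of all genes. Mouse 137 was higher than mouse 131 in 28 members, with a median of 0.38, larger than the median of 0.23 between the groups, while over all genes the median of this difference was -0.0042. It was higher by over 0.5, a limit chosen after the values were seen, in 83 genes in all (0.416%), and 8 of these were members: Fos, Jun, Atf3, Nr4a1, Nr4a2, Nr4a3, Zfp36 and Ppp1r15a.

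**Figure D2:**
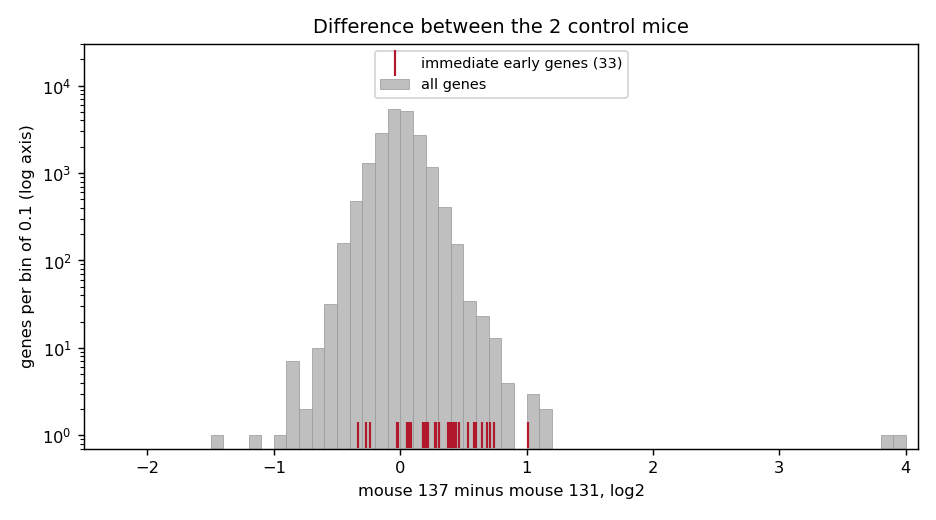
Number of genes, on a log axis, by the difference between control mice 137 and 131 in bins of 0.1 log2 units; the vertical red marks along the bottom show the 33 immediate early genes, which run from -0.34 to 1.01 with 28 above 0. Of all genes, 3 lie outside the plotted range, and the pair of genes near 4 are Hspa1a and the Y-linked Kdm5d.

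Against each control alone, the Cre+ mean was higher than mouse 131 by a median of 0.37 over the members and higher than mouse 137 by 0.07. Without mouse 131, 21 of 33 members had a higher Cre+ mean, against 48.6% of all genes, and without mouse 137 30 had, against 44.6%. At an unadjusted p under 0.05 in limma there were then 4 members: Nr4a1, Ier2 and Ier3, which were higher, and Rel, which was lower. Of all genes 3.72% were higher and 3.63% lower at that p in the same fit. Without mouse 137 there were 18 members at that p, all of them higher, against 4.86% of all genes higher and 2.27% lower. These comparisons share the Cre+ mice and are given side by side only. The pairs of one sex gave the same contrast in another form, since mouse 131 was the female control. The median over the members was 0.44 in the female pair, with 30 members higher in the Cre+ mouse (45.7% of all genes), and 0.016 in the male pair, with 20 higher (48.5% of all genes). Sex and the low control mouse cannot be told apart in these 4 animals.

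**Figure D3:**
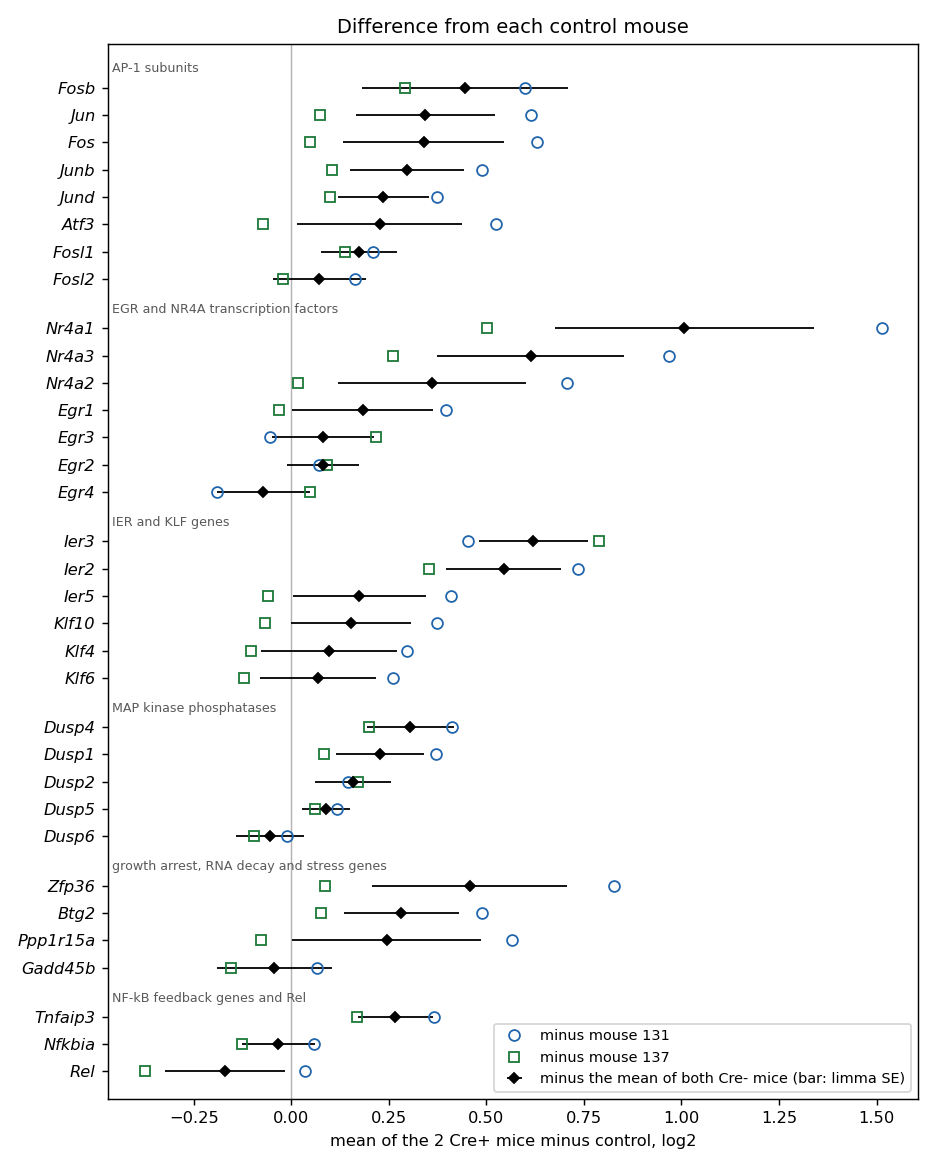
Mean of the 2 Cre+ mice minus the mean of both Cre- mice (black diamonds, bars show limma's moderated SE), minus mouse 131 alone (blue circles) and minus mouse 137 alone (green squares), on the log2 scale for each immediate early gene. Circles lie to the right of squares for 28 genes, and Nr4a1, Nr4a3, Ier2, Ier3 and Fosb lie at 0.26 or more against either control. Of these only Fosb had overlapping groups, with Cre+ mouse 135 (9.24) below mouse 137 (9.31).

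The AP-1 subunits are leucine zipper proteins that bind DNA as FOS-JUN or JUN-JUN pairs. All 8 had a higher Cre+ mean, against 45.9% of all genes, with a median of 0.27. Mouse 131 was the lowest in all 8, against 24.3% of all genes. Jun was at 11.71 and 11.60 in mice 129 and 135, at 11.04 in mouse 131 and at 11.58 in mouse 137. The groups did not overlap, but mouse 137 was within 0.016 of the lower Cre+ mouse, and the difference of 0.34 (SE 0.18, limma adjusted p = 0.883) became 0.07 without mouse 131. Junb, an AP-1 subunit with weaker transactivation than JUN, was at 8.76 and 8.74 against 8.26 and 8.65, a difference of 0.30 (SE 0.15). Jund, which unlike the other JUN genes is expressed at a steady level in many resting cells, was at 10.63 and 10.45 against 10.17 and 10.44, a difference of 0.24 (SE 0.12). In all of these JUN genes the low value was that of mouse 131, and without it Junb and Jund each differed by 0.10.

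Fos, the partner that gives the AP-1 dimer its stable DNA binding, was at 8.32 and 8.21 in mice 129 and 135 and at 7.64 and 8.22 in mice 131 and 137. The groups overlapped, because mouse 137 was level with the lower Cre+ mouse, and the difference of 0.34 (SE 0.21) became 0.05 without mouse 131. Fosb was at 9.98 and 9.24 against 9.01 and 9.31 (difference 0.45, SE 0.26); the groups overlapped, mouse 129 was the high one, 0.74 above the other Cre+ mouse, and the difference was 0.07 without mouse 129, 0.82 without mouse 135 and 0.29 without mouse 131. Fosl1, which encodes FRA-1, was at 6.71 and 6.77 against 6.53 and 6.60, so that both controls were below both Cre+ mice by a small step (difference 0.17, SE 0.10, and 0.14 without mouse 131). Fosl2 was between 7.38 and 7.62 on the 4 arrays (difference 0.07, SE 0.12, and -0.02 without mouse 131). Atf3, a repressor of the same zipper class that is induced by stress, was at 7.27 in both Cre+ mice and at 6.74 and 7.34 in mice 131 and 137. The difference was 0.23 (SE 0.21), and it was -0.07 without mouse 131.

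The NR4A genes held the largest difference among the members. They encode orphan nuclear receptors, and Nr4a1 (Nur77) is widely used as a reporter of antigen receptor signal strength in thymocytes. Nr4a1 was at 10.71 and 10.51 in mice 129 and 135, at 9.09 in mouse 131 and at 10.11 in mouse 137. Both controls lay below both Cre+ mice, by at least 0.40, and the controls also lay 1.01 apart. The difference between the groups was 1.01 (2.01-fold, SE 0.33), with a limma adjusted p of 0.661 over all probe sets and 0.163 among those with 1 symbol. It was 0.50 without mouse 131 and 1.51 without mouse 137. Nr4a3 (Nor1) was at 8.45 and 8.42 against 7.47 and 8.18, again without overlap and with mouse 131 far below (difference 0.61, 1.53-fold, SE 0.24, limma adjusted p = 0.758). Without mouse 131 it differed by 0.26. Nr4a2 (Nurr1) was at 8.67 and 8.87 against 8.06 and 8.75. Its groups overlapped, and the difference of 0.36 (SE 0.24) was 0.016 without mouse 131.

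The EGR genes, zinc-finger factors downstream of ERK that act at beta-selection and in positive selection, differed by less than 0.2 between the groups. Egr1 was at 8.74 and 8.47 in mice 129 and 135 and at 8.21 and 8.64 in mice 131 and 137, with overlapping groups (difference 0.18, SE 0.18, and -0.03 without mouse 131). Egr2 was at 6.67 in both Cre+ mice and at 6.60 and 6.58 in the controls, a separation of 0.07 between groups (difference 0.08, SE 0.09, and 0.09 without mouse 131). Egr3 and Egr4, like Egr2, Ier3 and Dusp2, had the controls in the other order: mouse 131 was above mouse 137, at 7.51 against 7.24 for Egr3 and at 7.64 against 7.41 for Egr4. Their differences between groups were 0.08 (SE 0.13) and -0.07 (SE 0.12), both within the spread of the mice, and 0.22 and 0.05 without mouse 131.

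Promoter sequences are shown for the NR4A genes with the largest differences and for other members on which the comparison turns. They are the 250 bases before the annotated start, read 5′ to 3′ on the gene's strand from RefSeq (GRCm38.p6), and capitals mark motif matches on either strand. The motifs searched were the CRE (TGACGTCA, bound by CREB), its short form TGACG, which the CRE contains on both strands, the AP-1 site TGANTCA, the EGR site GCGNGGGCG, the CArG box bound by SRF and the kappaB site bound by NF-kB. In Nr4a1 the capitals are 4 short CRE forms and 1 EGR site, and in Nr4a3 they are 4 short CRE forms.
Nr4a1, chr15:101266596-101266845, plus strand: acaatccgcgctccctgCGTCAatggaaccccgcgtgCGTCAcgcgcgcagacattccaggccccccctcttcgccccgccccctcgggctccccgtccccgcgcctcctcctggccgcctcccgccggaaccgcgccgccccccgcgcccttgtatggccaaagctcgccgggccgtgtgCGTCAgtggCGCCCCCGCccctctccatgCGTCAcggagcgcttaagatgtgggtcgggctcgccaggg
Nr4a3, chr4:48045055-48045304, plus strand: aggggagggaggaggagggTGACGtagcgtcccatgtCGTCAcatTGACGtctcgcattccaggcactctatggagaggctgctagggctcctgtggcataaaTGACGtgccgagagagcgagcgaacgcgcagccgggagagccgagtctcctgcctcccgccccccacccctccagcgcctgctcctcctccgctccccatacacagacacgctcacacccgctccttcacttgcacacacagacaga

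Ier3 (IEX-1), which encodes a short-lived regulator of ERK signalling and cell survival, was at 6.79 and 6.82 in mice 129 and 135 and at 6.36 and 6.02 in mice 131 and 137. Here mouse 137 was the lower control, and the groups were 0.44 apart at their nearest, the widest such gap among the members. The difference was 0.62 (1.54-fold, SE 0.14) with a limma adjusted p of 0.443, and it was 0.79 (SE 0.11) without mouse 131 and 0.45 without mouse 137. Ier2, a nuclear protein gene induced by growth factors, was at 8.64 and 8.66 against 7.92 and 8.30, also without overlap (difference 0.54, 1.46-fold, SE 0.15, limma adjusted p = 0.537). Without mouse 131 it differed by 0.35. Ier5 was at 8.68 and 8.63 against 8.24 and 8.71, so that mouse 137 was the highest of the 4 mice (difference 0.17, SE 0.17, and -0.06 without mouse 131). The Ier3 promoter, shown because this gene was low in both controls, holds 1 kappaB site in capitals, 92 to 83 bases before the start.
Ier3, chr17:35821463-35821712, plus strand: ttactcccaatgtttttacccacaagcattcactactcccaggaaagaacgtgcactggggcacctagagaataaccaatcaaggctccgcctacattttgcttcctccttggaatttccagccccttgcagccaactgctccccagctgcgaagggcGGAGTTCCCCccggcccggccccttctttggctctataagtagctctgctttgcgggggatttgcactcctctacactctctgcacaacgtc

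In the KLF genes of the list, which encode Kruppel-like zinc-finger factors, the groups overlapped. Klf10, a gene induced by TGF-beta, was at 10.22 and 10.32 against 9.90 and 10.34. Klf4, which restrains T cell proliferation, was at 7.82 and 7.58 against 7.40 and 7.80, and Klf6 was at 10.88 and 10.66 against 10.51 and 10.89. In these 3 genes mouse 131 was lowest and mouse 137 was at the level of the higher Cre+ mouse. The differences were 0.15 (SE 0.15), 0.10 (SE 0.17) and 0.07 (SE 0.15), and without mouse 131 they were -0.07, -0.10 and -0.12.

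The DUSP genes encode phosphatases that remove phosphate from MAP kinases. In 4 of 5 the groups did not overlap, against 16.1% of all genes. The gaps were small, from 0.0013 in Dusp1 to 0.18 in Dusp4. Dusp4, a nuclear phosphatase for ERK and JNK, was at 8.22 and 8.18 in mice 129 and 135 and at 7.79 and 8.001 in mice 131 and 137. Both controls were below both Cre+ mice by 0.18 or more, and the difference was 0.31 (SE 0.11, limma adjusted p = 0.725), or 0.20 without mouse 131. Dusp1, the nuclear phosphatase that acts most on p38 and JNK, was at 11.23 and 11.07 against 10.78 and 11.07 (difference 0.23, SE 0.11, and 0.08 without mouse 131). Mouse 137 was level with the lower Cre+ mouse there. Dusp2 (PAC-1), a phosphatase of activated lymphocytes, was at 9.05 and 8.86 against 8.81 and 8.78 (difference 0.16, SE 0.10), and Dusp5, an ERK-specific nuclear phosphatase, at 10.12 and 10.10 against 9.99 and 10.05 (difference 0.09, SE 0.06). In Dusp2 and Dusp5 the controls were within 0.06 of each other, and without mouse 131 the differences were 0.17 and 0.06. Dusp6, the cytoplasmic ERK phosphatase whose RNA follows ERK activity, was at 8.88 and 8.78 against 8.84 and 8.93, with overlapping groups (difference -0.05, SE 0.09, and -0.10 without mouse 131).

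Among the growth arrest, RNA decay and stress genes, Zfp36 differed most. It encodes tristetraprolin, which binds AU-rich elements and speeds the decay of many short-lived RNAs, those of immediate early genes included. Zfp36 was at 8.89 and 8.78 in mice 129 and 135, at 8.01 in mouse 131 and at 8.75 in mouse 137. The groups did not overlap, but only mouse 131 was far off, and the difference of 0.46 (SE 0.25) was 0.09 without it. Btg2, an antiproliferative gene that p53 also induces, was at 10.92 and 10.77 against 10.36 and 10.77 (difference 0.28, SE 0.15, and 0.07 without mouse 131). Ppp1r15a (GADD34), which directs a phosphatase to eIF2alpha, was at 9.24 and 8.91 against 8.51 and 9.16, with mouse 137 between the Cre+ mice (difference 0.24, SE 0.24, and -0.08 without mouse 131). Gadd45b, an activator of stress kinases, was at 7.78 and 8.08 against 7.86 and 8.08, and here mouse 129 was the lowest (difference -0.04, SE 0.15, and -0.15 without mouse 131). The promoters of Zfp36, Btg2 and Dusp1 are shown as examples of members whose differences were at most 0.09 without mouse 131. Others met this limit as well, such as Fos (0.05) and Jun (0.07). In capitals, Zfp36 has 1 CArG box and 1 EGR site, Btg2 has 1 CRE and 1 EGR site, and Dusp1 has 1 CRE with a further short form upstream.
Zfp36, chr7:28379229-28379478, minus strand: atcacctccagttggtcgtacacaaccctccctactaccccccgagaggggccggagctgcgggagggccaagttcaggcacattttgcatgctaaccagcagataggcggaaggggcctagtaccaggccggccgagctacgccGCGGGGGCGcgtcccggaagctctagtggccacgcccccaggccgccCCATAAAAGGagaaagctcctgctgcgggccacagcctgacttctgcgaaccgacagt
Btg2, chr1:134079156-134079405, minus strand: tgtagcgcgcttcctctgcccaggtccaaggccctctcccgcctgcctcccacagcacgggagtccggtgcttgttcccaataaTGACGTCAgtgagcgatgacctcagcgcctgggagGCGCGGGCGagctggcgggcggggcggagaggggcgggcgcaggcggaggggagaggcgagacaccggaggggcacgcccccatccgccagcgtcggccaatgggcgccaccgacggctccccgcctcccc
Dusp1, chr17:26508473-26508722, minus strand: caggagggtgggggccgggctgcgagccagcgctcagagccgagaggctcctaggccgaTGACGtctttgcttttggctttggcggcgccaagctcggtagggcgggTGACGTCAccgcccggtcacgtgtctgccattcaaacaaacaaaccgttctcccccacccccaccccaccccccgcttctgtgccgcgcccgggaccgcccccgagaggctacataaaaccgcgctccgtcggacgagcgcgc

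Of the NF-kB genes, 1 of 3 had a higher Cre+ mean. Tnfaip3 (A20), the ubiquitin-editing enzyme that ends NF-kB signalling, was at 11.30 and 11.12 in mice 129 and 135 and at 10.85 and 11.04 in mice 131 and 137. The groups did not overlap, with a step of 0.07 between them, and the difference was 0.27 (SE 0.10, limma adjusted p = 0.722), or 0.17 without mouse 131. Nfkbia, which encodes the inhibitor IkB-alpha and is itself an NF-kB target, was at 11.21 and 11.02 against 11.06 and 11.24, with interleaved groups (difference -0.03, SE 0.09, and -0.13 without mouse 131). Rel, the c-Rel subunit of lymphocytes, was at 8.86 and 8.78 against 8.78 and 9.19. Mouse 137 was the high one for Rel, the difference was -0.17 (SE 0.15), and it was -0.38 without mouse 131. The Nfkbia promoter is shown for comparison with that of Ier3: it has 1 kappaB site in capitals, 29 to 20 bases before the start.
Nfkbia, chr12:55492648-55492897, minus strand: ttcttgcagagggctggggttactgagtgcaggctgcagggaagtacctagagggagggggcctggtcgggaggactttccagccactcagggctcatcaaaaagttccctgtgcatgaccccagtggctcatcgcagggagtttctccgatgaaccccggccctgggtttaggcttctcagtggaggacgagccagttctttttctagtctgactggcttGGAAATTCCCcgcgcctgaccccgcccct

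RefSeq promoter windows were found for 27 of the 33 members; Fosl1, Egr1, Egr3, Ier2, Dusp4 and Klf10 had no entry in the table. At least 1 window held the short CRE form in 16 of the 27 (59.3%), against 19.8% of 27025 genes with such windows. The full CRE was in 3 (Dusp1, Btg2 and Ppp1r15a; 11.1% against 1.77%), the CArG box in 3 (Dusp5, Egr2 and Zfp36; 11.1% against 1.62%) and the EGR site in 9 (33.3% against 5.33%). The kappaB site was in 8 (29.6% against 4.46%) and the AP-1 site in 1, Tnfaip3 (3.70% against 7.82%). Members with the short CRE form had a median difference between mice 137 and 131 of 0.41, and the 11 without it 0.22. For the kappaB site this median was 0.19 with and 0.40 without, for the CArG box 0.06 and 0.38, for the EGR site 0.40 and 0.33, and for the full CRE 0.41 and 0.35; Tnfaip3, with the AP-1 site, was at 0.20. These are descriptions of letters in short windows; several members hold more than 1 motif, and no binding was measured.

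Other genes of the early response and of the kinases and factors above it were examined in the same way. Of 30 further immediate early and early response genes, 22 (73.3%) had a higher Cre+ mean, against 45.9% of all genes, with a median of 0.14. Mouse 131 was the lowest in 24 (80%), against 24.3% of all genes. Against mouse 131 the median of this list was 0.25 and against mouse 137 it was -0.0049. In this list 0 genes passed over all probe sets and 2 passed among probe sets with 1 symbol, of which 1.22% passed in all. Phlda1, a pleckstrin-like gene induced by growth and receptor signals, was at 9.02 and 9.14 in mice 129 and 135 and at 7.79 and 8.16 in mice 131 and 137. Both controls were well below the Cre+ mice, with a difference of 1.11 (2.15-fold, SE 0.15, limma adjusted p = 0.216 over all probe sets and 0.00673 among those with 1 symbol). Zfp36l2, a relative of Zfp36 that acts with Zfp36l1 at beta-selection, was at 12.09 and 11.96 against 11.68 and 11.76 (difference 0.31, SE 0.06, limma adjusted p = 0.0372 among probe sets with 1 symbol). Of this list 3 more genes were chosen after their values were seen. Socs3, an inhibitor of cytokine signalling, was at 8.60 and 8.31 against 7.89 and 8.15, without overlap and with mouse 131 lowest (difference 0.44, SE 0.15). Myc lay between 12.24 and 12.35 on all arrays, and Cd69, an early activation marker of T cells, was at 9.68 and 9.47 against 9.78 and 10.20, with higher values in the controls.

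SRF, the factor that binds CArG boxes, and its cofactors were lowest in mouse 131 in 6 of 6 cases, against 24.3% of all genes. Their median difference between the groups was 0.09. Elk3, an ETS-domain cofactor of SRF, was at 9.22 and 9.09 in mice 129 and 135 and at 8.49 and 8.64 in the controls (difference 0.59, SE 0.10). It passed among probe sets with 1 symbol (limma adjusted p = 0.0292) and not over all (0.312). Mrtfb, an actin-regulated cofactor, differed by 0.20 (SE 0.11). For the upstream lists 0 genes passed in either test, and the medians were near 0: -0.0015 for the RAS-ERK cascade (4 of 10 higher), 0.02 for JNK and p38 kinases (4 of 8 higher), 0.01 for CREB and NFAT factors (7 of 12 higher) and -0.01 for NF-kB subunits and kinases (5 of 10 higher). Of all genes 45.9% were higher. In the same order of lists, mouse 131 was the lowest in 4 of 10, 1 of 8, 8 of 12 and 4 of 10, against 24.3% of all genes. For the CREB and NFAT factors the median difference between mice 137 and 131 was 0.08. Named by their p, Map2k1 (MEK1) differed by 0.21 (SE 0.08) and the adaptor Grb2 by -0.18 (SE 0.10). Mapkapk2 and Map2k3 of the p38 branch differed by 0.26 (SE 0.07) and 0.15 (SE 0.07). The calcineurin subunit gene Ppp3ca differed by -0.32 (SE 0.09), Nfatc1 by 0.17 (SE 0.10), the inhibitor gene Nfkbib by -0.10 (SE 0.04) and Tnip1, a partner of A20, by 0.22 (SE 0.10).

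**Figure D4:**
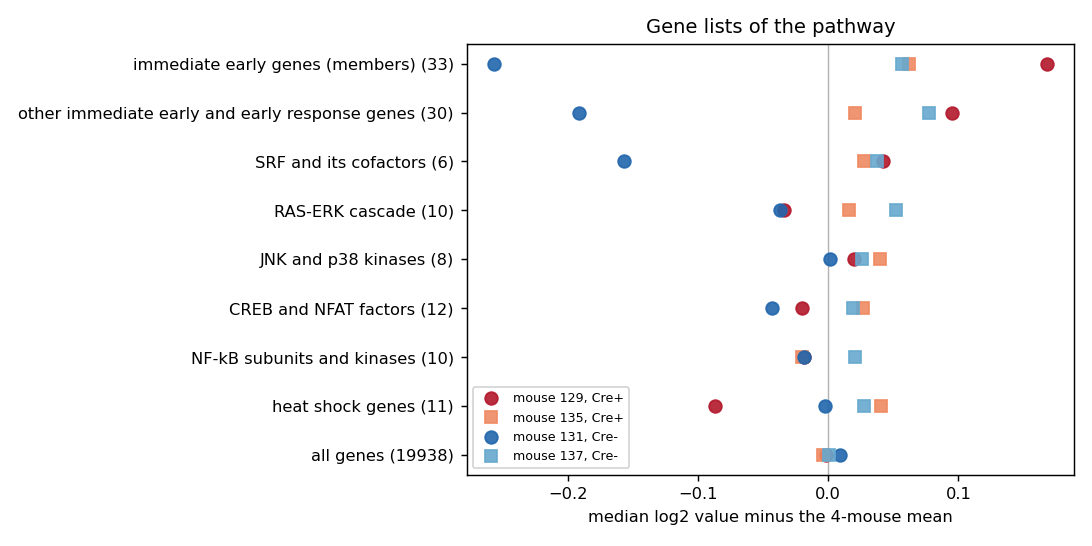
Median over the genes of each list of the log2 value minus that gene's 4-mouse mean, for each mouse, with the number of genes in brackets; colours and symbols mark the mice as in the legend. Mouse 131 lies at -0.26 for the immediate early genes, -0.19 for the further early response genes and -0.16 for SRF and its cofactors, and between -0.04 and 0.01 for all genes and the other lists plotted, which are those of the kinases, factors and heat shock genes.

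Other features of mouse 131 were measured beside these genes. Hspa1a, an inducible HSP70 gene that responds to heat and proteotoxic stress, was at 8.43 in mouse 131, far under its 11.51 and 12.14 in mice 129 and 135 and 12.36 in mouse 137. The median over the 11 measured heat shock genes did not show this: it was 0.04 between the controls. Mouse 131 was the lowest in 5 (45.5%), against 24.3% of all genes. The mean log2 level of the list, Hspa1a included, was lowest in mouse 131, at 10.73. It was 10.98, 11.16 and 11.20 in mice 129, 135 and 137. Hspd1 and Hsph1 differed between the groups by -0.10 (SE 0.05) and -0.23 (SE 0.13). The part of the heat shock differences in the values of the immediate early genes was not tested. The amount of RNA labelled is not given by mouse, and its part was not tested.

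Markers of other cells that a sort could hold were measured on the same arrays. Over all genes mouse 131 was the lowest in 24.3%. Here it was the lowest in 2 of 15 macrophage and dendritic cell genes and 0 of 6 B cell genes. It was so in 0 of 8 natural killer and gamma-delta T cell genes and 1 of 7 neutrophil genes. The same held for 1 of 2 erythroid and 1 of 10 stromal genes. The mean log2 level of the macrophage and dendritic list was 6.21 and 6.39 in mice 129 and 135, against 6.19 and 6.32 in mice 131 and 137. The mean was 6.47 and 6.51 against 6.61 and 6.84 for B cells, 6.72 and 6.69 against 6.88 and 6.83 for natural killer and gamma-delta T cells, and 5.55 and 5.52 against 5.61 and 5.53 for neutrophils. For erythroid genes it was 6.27 in both Cre+ mice against 6.29 and 6.21, and for stroma 7.35 and 7.30 against 7.41 and 7.30. Between the controls, some antigen presentation and B cell genes differed as much as Nr4a1 or nearly so: mouse 137 was above mouse 131 by 1.14 for H2-Aa, 1.14 for Cd74 and 0.82 for Ms4a1. Most genes of the macrophage and dendritic list did not follow: the median was -0.07, and mouse 137 was lower in 10 of 15. Over the B cell list the median was 0.15, and mouse 137 was lower in 2 of 6. H2-Aa was at 6.51 and 6.67 in mice 129 and 135, against 6.59 and 7.73, so that mouse 137 alone was high. The myeloid gene Lyz2 was higher with Cre by 1.04 (SE 0.18), and passed among probe sets with 1 symbol (limma adjusted p = 0.0206), while Csf1r, which defines macrophages, lay between 5.52 and 5.63 on all arrays. Nkg7 of natural killer cells and Blk of B cells also passed there, with differences of -1.04 (SE 0.09) and -0.51 (SE 0.09). Each was the only gene of its list to pass. The natural killer and gamma-delta T cell list had a higher Cre+ mean in 3 of 8 genes (median -0.05). In the B cell list the Cre+ mean was higher in 1 of 6 genes, Cd79b (0.25), and the median was -0.27. Thymocyte genes had a higher Cre+ mean in 9 of 10 cases, against 45.9% of all genes, with a median of 0.29. Cd3e, Cd3d, Cd3g and Rag1 passed among probe sets with 1 symbol, and Cd2 went the other way, at -0.52 (SE 0.14). The mean of the list was 11.41 and 11.32 against 11.18 and 11.14. Genes of the earlier DN stages had a higher Cre+ mean in 1 of 6 (median -0.31). That gene, the Notch target Hes1, was the one of the list that passed there, with a difference of 0.91 (SE 0.05, limma adjusted p = 0.000467, and 0.0570 over all probe sets). The Cre+ mean was higher for 2 of 6 genes of double-positive or mature T cells (median -0.18). The mean of the earlier DN list was 9.19 and 9.04 in mice 129 and 135, against 9.31 and 9.12 in mice 131 and 137. Mouse 137 was below mouse 131 in 5 of its 6 genes (median -0.12), against 10226 of all 19938 genes. For the double-positive or mature list the mean was 9.14 and 9.15 against 9.10 and 9.33. Mouse 137 was above mouse 131 in 6 of 6 there (median 0.21), against 9696 of all genes. In a sorted population, a change in the share of cells and a change in RNA per cell cannot be told apart, and the part of such shifts in the values of the immediate early genes was not tested.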

How the data were processed

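Total RNA of sorted DN4 cells from 4 mice was amplified and hybridised to Affymetrix mouse gene arrays, per the labels' protocols. The deposited values are log2 expression values. The authors used RMA according to the submitters' processing notes, while its version was not stated in the sources at hand; the log2 scale was read from the values. The labels name 3 sets of RNA input amounts without tying them to mice. RMA brings all arrays to one distribution, so that a shift shared by all genes would not show. Of the sample columns, 0 were left unused.

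Genes were named through the platform annotation, from probe sets with exactly 1 symbol (21789, for 19938 genes); the probe set with the highest mean stood for a gene. All 35556 probe sets were tested with limma 3.58.1 in R 4.3.3 (eBayes with an intensity trend, 2 residual and 2.99 prior degrees of freedom) and Benjamini-Hochberg adjustment, threshold 0.05; the fit was checked on simulated data. SEs are limma's moderated SEs. The members and lists were chosen with earlier results of these data known. All members are described; from each further pathway list the 2 genes with the smallest p are named, and marker genes and Kdm5d were named after their values were seen. The mice are separate animals, and no number pairs them across groups. Alternatives were centring, quantile normalization, a filter on dim probe sets, a test of probe sets with 1 symbol, no trend, array weights, sex as a block, the mean of probe sets, and leaving out each mouse.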

Additional observations from a re-analysis of the deposited data

Results flagged for a closer look

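In 14 of the 33 immediate early genes (42.4%) the difference between the Cre+ and the Cre- mouse had one sign in the female pair (mice 129 and 131) and the other sign in the male pair (135 and 137); over all genes this share was 45.8%. The shares lie near each other, so that opposite signs are not particular to these genes. With 1 pair of each sex the difference was not tested. In 12 of the 14 the Cre+ mouse was the higher one of the female pair. That pair's control was mouse 131, the lowest mouse in 24 of the 33 members, and sex cannot be told apart from its low values. Over all 33 members the Cre+ mouse was higher in the female pair in 30, against 45.7% of all genes. The female difference exceeded the male one by 1.05 for Fosb, 0.98 for Ppp1r15a, 0.70 for Egr1 and 0.69 for Fos. It did so by 0.64 for Klf4, 0.61 for Klf6, 0.59 for Atf3 and 0.52 for Ier5. For Rel the excess was 0.49, for Nfkbia 0.37, for Klf10 0.34 and for Dusp6 0.18. In Egr3 and Egr4 the female difference was below the male one, by -0.17 and -0.25.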

How the results depend on the processing

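Members past the adjusted threshold numbered 0 under every alternative fit that kept all mice, and the smallest adjusted p of a member there was 0.0638 (limma). Over all probe sets 10 passed with centred arrays, 80 without probe sets under the median level (which leaves out Fosl1, Egr2 and Ier3) and 266 among those with 1 symbol. The 16 members without overlap (16.1% of all genes) became 18 to 27 when a mouse was left out (28.2% to 35.2% of all genes), and 30 were higher in the female pair (45.7%); such a count cannot fall when a mouse is left out. The median of 0.23 was 0.07 without mouse 131, 0.37 without mouse 137, 0.44 in the female and 0.016 in the male pair. Members' differences could move under 6 alternatives only, since the other 6 leave them as they are by construction. Of 198 values under those 6, 180 kept their sign, and the 18 others came from leaving out a mouse. Ranges over the mice left out were -0.020 to 0.16 for Fosl2, -0.031 to 0.40 for Egr1, -0.055 to 0.22 for Egr3, -0.19 to 0.047 for Egr4, -0.060 to 0.41 for Ier5, -0.073 to 0.53 for Atf3, -0.10 to 0.30 for Klf4, -0.12 to 0.26 for Klf6, -0.068 to 0.37 for Klf10, -0.079 to 0.57 for Ppp1r15a, -0.19 to 0.11 for Gadd45b, -0.13 to 0.060 for Nfkbia and -0.38 to 0.035 for Rel; the cause was not tested. Sex as a block gives no count without overlap. The precision is limited by 2 arrays a group; signal over background was not analysed here.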
